A study of Mus musculus with 6 samples.

Results

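The data concern what changed between 1 week and 2 weeks in the immune cells of SOX17KO mouse colon tumours. The cells are the barcodes of the libraries labelled SOX17KO at 1 week and SOX17KO at 2 weeks that held at least 200 genes and at most 10% mitochondrial UMIs (unique molecular identifiers, 1 for each captured RNA molecule). This gave 7309 cells at 1 week and 3013 at 2 weeks, together 10322 of the 33862 cells of the series. The series holds 6 libraries: Control and SOX17KO tumours with no stated time, and the same pair at 1 week and at 2 weeks. The Control libraries at 1 week (5492 cells) and 2 weeks (4783 cells) are set beside part of the SOX17KO values. A SOX17KO ratio given without its Control value is not thereby particular to SOX17KO. Each library is droplet single-cell RNA-seq (10x Genomics 3' chemistry) of sorted live cells that carried CD45 and lacked EpCAM, and the design text says that tumours of 5 mice were pooled for a condition. What the weeks are counted from, the cells in which SOX17 was deleted and by what driver, the tumour model, the strain, sex and age of the mice and what Control animals carry are not given in the sources used here. With 1 library at each time, week, mouse pool, sort and library cannot be told apart, and every interval given covers counting error only.

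SOX17 is a transcription factor of the SRY-box family, known for its part in endoderm and vascular development and as a restraint on WNT signalling in gut epithelium. CD45 marks leukocytes and EpCAM marks epithelial cells, so the sort reads the immune cells around tumour cells and not the tumour cells themselves. In many tumours monocytes enter along ligands of CCR2 and mature into macrophages, while T cells follow ligands of CXCR3 and kill through perforin and granzymes.

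Kept SOX17KO cells held 51837103 UMIs at 1 week and 18028992 at 2 weeks, with medians of 6132 and 4634 UMIs, 2238 and 1957 genes and 2.47% and 2.70% mitochondrial UMIs per cell. The 1-week library was the deeper one per cell, so shares of cells are also given after thinning each cell to 2000 UMIs, which leaves out 1120 and 504 shallower cells. The pair of libraries shared 7 barcode sequences, 0.221% of the smaller one. Sox17 had 20 and 3 UMIs in the SOX17KO libraries against 11 and 10 in the Control libraries of the same times, too few in any of them to check the labels.

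Between 1 and 2 weeks the SOX17KO libraries went from mostly monocytes and macrophages to one in which T cells were nearly as frequent. Classes were assigned by marker gates, which ask for UMIs of a minimum number of a class's marker genes, and were held against a second list of check markers. In both SOX17KO libraries each gated class was the highest in its own check markers, except type 2 dendritic cells and epithelial cells, of which the 2-week library held none. Type 2 dendritic cells had only rank 3 in their own check markers in both libraries, with type 1 dendritic cells the highest. T cells, gated on the CD3 chains and T cell receptor constant genes, numbered 145 cells at 1 week (1.98%, 95% interval 1.68 to 2.33) and 759 at 2 weeks (25.2%, 23.6 to 26.8), 12.7 times the share, with a log2 odds ratio of 4.05, interval 3.79 to 4.33. Monocytes and macrophages, gated on genes such as Csf1r, Adgre1, C1qa and Ly6c2, numbered 4550 cells at 1 week (62.3%, 95% interval 61.1 to 63.4) and 912 at 2 weeks (30.3%, 28.6 to 31.9), a log2 odds ratio of -1.93, interval -2.06 to -1.79. Neither pair of intervals overlapped, and after thinning the T cell shares were 2.38% and 26.8% and the monocyte and macrophage shares 59.7% and 29.5%. In the Control libraries T cells were 1.64% and 44.1% and monocytes and macrophages 64.6% and 23.6% of cells at 1 and 2 weeks, log2 odds ratios of 5.56 and -2.56.

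B cells, the antibody-forming lineage, gated on Cd79a, Ms4a1 and Pax5 among others, numbered 27 cells at 1 week (0.369%, 95% interval 0.244 to 0.537) and 168 at 2 weeks (5.58%, 4.78 to 6.46), a log2 odds ratio of 3.97, interval 3.40 to 4.64. The Control libraries held 0.346% and 0.418% B cells at these times, a log2 odds ratio of 0.27, interval -0.71 to 1.26. The B cell share was thus many times higher at 2 weeks in SOX17KO and close to level in Control, a difference not tested over samples. NK cells, innate lymphocytes gated on Ncr1 and Klr receptors, numbered 174 cells at 1 week (2.38%, 95% interval 2.04 to 2.76) and 174 at 2 weeks (5.77%, 4.97 to 6.67), a log2 odds ratio of 1.33, interval 1.01 to 1.65 (0.86 in Control). Neutrophils, gated on Csf3r, Cxcr2 and Retnlg among others, numbered 866 cells at 1 week (11.8%, 95% interval 11.1 to 12.6) and 217 at 2 weeks (7.20%, 6.30 to 8.18), a log2 odds ratio of -0.79, interval -1.02 to -0.57 (-0.76 in Control). Neutrophils carry little RNA, with medians of 2179 and 1952 UMIs here, and after thinning their share was 7.90% and 4.03%.

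The dendritic cells, which present antigen to T cells, numbered 359 cells at 1 week (4.91%, 95% interval 4.43 to 5.43) and 192 at 2 weeks (6.37%, 5.53 to 7.30), a log2 odds ratio of 0.40, interval 0.13 to 0.66 (0.00 in Control). Among them were 64 and 35 type 1, 222 and 120 type 2 and 73 and 37 mature cells at 1 and 2 weeks. Plasmacytoid dendritic cells were 0.233% and 0.465% and fibroblasts that had passed the sort 3.31% and 2.59% of cells. Mast cells and basophils were 0.670% and 0.531%, a log2 odds ratio of -0.31, interval -1.25 to 0.50 that became 0.95 after thinning, so no direction is given for them. Epithelial cells, which the sort should remove, numbered 6 at 1 week and 0 of 3013 at 2 weeks, which allows a share of up to 0.0996%. Barcodes that passed gates of several lineages, where droplets with more than 1 cell collect, were 5.60% and 7.53%, and 6.36% and 8.50% passed no gate.

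**Figure D1:**
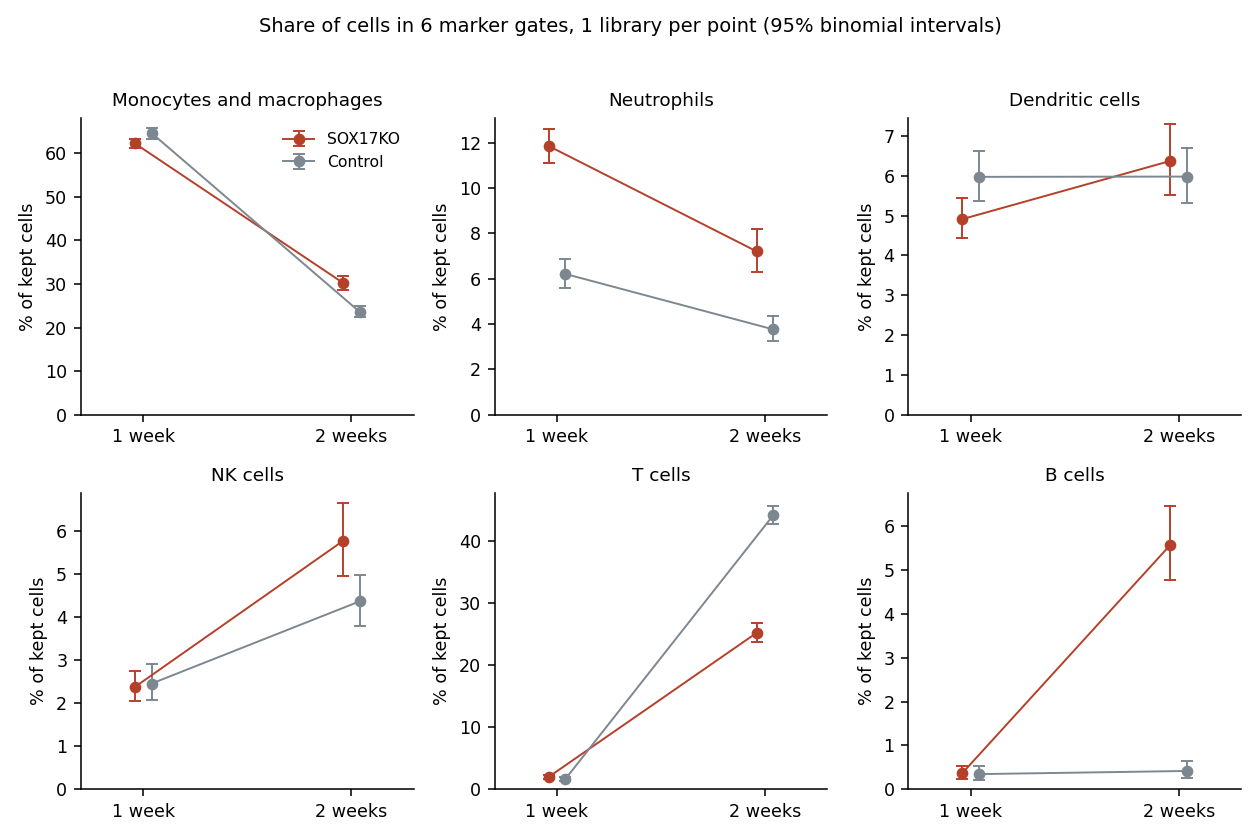
Share of kept cells (%, vertical axis) in 6 gated classes at 1 and 2 weeks, for the SOX17KO and Control libraries, with 95% binomial intervals as bars. In SOX17KO the T cell share goes from 1.98% to 25.2% and the monocyte and macrophage share from 62.3% to 30.3%, and B cells go from 0.369% to 5.58% against 0.346% to 0.418% in Control.

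Summed over all kept cells, genes of T and B cells led those higher at 2 weeks, and chemokines and other macrophage genes led those lower. Levels are CPM, the UMIs of a gene in every 1000000 UMIs of the summed cells, and a gene counts as measured with at least 50 UMIs over both libraries. Of 13870 genes measured, 2397 (17.3%) were at least 2-fold higher at 2 weeks and 576 (4.15%) at least 2-fold lower. Themis, which sets T cell receptor signalling in the thymus, stood at 20.1 CPM at 1 week and 467 CPM at 2 weeks, a log2 ratio of 4.54, interval 4.44 to 4.63. In Control its log2 ratio was 4.87. Bank1, a B cell adaptor, stood at 10.2 CPM at 1 week and 156 CPM at 2 weeks (log2 ratio 3.93) and at 12.1 and 16.6 CPM in Control. The other 10 genes of this direction chosen by rule were Cxcr6 (from 8.10 to 123 CPM), the receptor of CXCL16, Cd28 (from 17.4 to 166 CPM), the costimulatory receptor, the CD3 chains Cd3e (from 9.78 to 125 CPM) and Cd3g, which the T cell gate itself uses, and Inpp4b, Cd6, Tmem163, St6galnac3, Camk4 and Fam169b, with log2 ratios of 3.13 to 3.92.

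On the lower side, the CCR2 ligand Ccl12 stood at 235 CPM at 1 week and 10.5 CPM at 2 weeks (log2 ratio -4.48, interval -4.70 to -4.28) and the eosinophil attractant Ccl24 at 1441 CPM at 1 week and 72.6 CPM at 2 weeks (-4.31, interval -4.39 to -4.23). The same direction held for Pf4, Ccl2, Ccl7, Ccl8, Cxcl10, Isg15, Spp1, Mrc1, Fabp5 and Hmox1, whose log2 ratios ran from -3.44 to -2.08. In Control the log2 ratios were -4.49 for Ccl12 and -4.02 for Ccl24. In a summed library, fewer cells of a type and less RNA per cell cannot be told apart, and the T cell and macrophage shares moved with these values, so the classes are taken singly from here on. Scaling by TMM, which centres the typical gene, lowered every all-cell log2 ratio by 0.29 and gave 1514 higher and 1163 lower genes. The shifts within the gates, by the same reckoning, were 0.08 for monocytes and macrophages, -0.29 for neutrophils (a raised ratio), 0.15 for dendritic cells, 0.15 for T cells and 0.20 for NK cells.

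Within the monocyte and macrophage gate, cells with macrophage markers alone were more frequent at 2 weeks and cells with both marker sets less frequent. Macrophage-gated cells, with at least 2 of C1qa, C1qb, C1qc, Ms4a7, Trem2 and Mrc1, were 512 of 4550 (11.3%, 10.3 to 12.2) at 1 week and 240 of 912 (26.3%, 23.5 to 29.3) at 2 weeks. Monocyte-gated cells, with at least 2 genes of a list that includes Ly6c2, Plac8, Chil3 and Vcan, were 1559 of 4550 (34.3%, 32.9 to 35.7) at 1 week and 370 of 912 (40.6%, 37.4 to 43.8) at 2 weeks. Cells with both sets were 2384 of 4550 (52.4%, 50.9 to 53.9) at 1 week and 251 of 912 (27.5%, 24.6 to 30.5) at 2 weeks. Detection of several markers depends on depth, which was lower at 2 weeks (medians of 6615 and 5071.5 UMIs in the gate). After thinning, the macrophage-gated share was 19.3% and 26.2%, the monocyte-gated share 42.1% and 45.2% and the share with both 30.7% and 15.6%, the same directions with smaller gaps. In Control, macrophage-gated cells were 463 of 3550 at 1 week and 153 of 1130 at 2 weeks, and monocyte-gated cells 36.1% and 47.1%. After thinning the Control macrophage-gated share was 21.1% (19.7 to 22.5) and 15.4% (13.1 to 17.9), the opposite direction to SOX17KO.

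In monocytes and macrophages, chemokine genes had the lowest median ratio of the 17 gene lists. Of 10933 genes measured in this gate, 412 (3.77%) were at least 2-fold higher and 417 (3.81%) at least 2-fold lower at 2 weeks, with a median log2 ratio of 0.07; under TMM these were 329 higher and 502 lower. Of 22 measured chemokine genes, 14 were at least 2-fold lower and 1 at least 2-fold higher, with a median of -1.55. In Control these genes had a median of -1.40, with log2 ratios of -2.76 for Ccl12 and -2.41 for Ccl24. Ccl12 (ENSMUSG00000035352) stood at 308 CPM at 1 week and 29.8 CPM at 2 weeks, a log2 ratio of -3.37, interval -3.62 to -3.14, and Ccl7, another CCR2 ligand, at 488 CPM at 1 week and 26.1 CPM at 2 weeks (-4.22, interval -4.49 to -3.97). For Ccl2, the main CCR2 ligand, the values were 989.7 and 150.0 CPM (-2.72, interval -2.83 to -2.62), and for Ccl8 480.0 and 69.3 CPM (-2.79, interval -2.95 to -2.64; -5.85 in Control). These 4 genes lie in 1 stretch of mouse chromosome 11 of GRCm38, all on the plus strand: Ccl2 at chr11:82035571-82037453, Ccl7 at chr11:82045712-82047525, Ccl12 at chr11:82101845-82103400 and Ccl8 at chr11:82115185-82116799. Each interval lay below 0.

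Ccl24, on chromosome 5 (chr5:135569937-135573049), stood at 1957 CPM at 1 week and 198 CPM at 2 weeks, a log2 ratio of -3.31, interval -3.40 to -3.21. Pf4, platelet factor 4, which macrophages also make, stood at 788 CPM at 1 week and 171 CPM at 2 weeks, and 1 cell held 38.0% of its 2-week UMIs, without which its log2 ratio went from -2.20 to -2.86. The CXCR3 ligands, which draw T and NK cells, were lower to different degrees: Cxcl10 at 1558 and 604 CPM (-1.37) and Cxcl9 at 1033 and 622 CPM (-0.73). Cxcl16, the ligand of CXCR6, was the single member at least 2-fold higher, at 166 and 370.1 CPM (1.16, interval 1.08 to 1.24), and Ccl5, a chemokine for T cells and monocytes, stood at 247 and 412 CPM (0.74). The neutrophil attractant Cxcl2 was at 1367 and 568 CPM, while Ccl3 (149.7 and 173 CPM) and Ccl9 (628 and 702 CPM) hardly differed between weeks.

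Chemokines were lower in the 3 sub-gates analysed; the cells with neither marker set (95 and 51) were left out. At least 2-fold lower were 12 of 19 measured chemokines in monocyte-gated cells, where 3.57% of all measured genes were, 13 of 20 in macrophage-gated cells (background 4.33%) and 13 of 21 in cells with both sets (background 5.43%). The log2 ratios in monocyte-gated cells, cells with both sets and macrophage-gated cells were -3.51, -2.92 and -3.67 for Ccl12 and -3.72, -3.17 and -2.59 for Ccl24. Ccl8 had -5.65, -3.26 and -2.19 and Cxcl10 -1.36, -1.34 and -2.46 in the same order. When classes were taken from clusters in place of gates, 9 of 20 measured members were at least 2-fold lower, and after thinning 12 of 22.

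Type I interferon response genes were lower at 2 weeks in monocytes and macrophages by a smaller margin. Of 27 measured members, 5 were at least 2-fold lower and 0 at least 2-fold higher, with a median log2 ratio of -0.61. In Control their median was -0.83, and Isg15 had -1.82. Isg15, which is conjugated to other proteins in the antiviral response, stood at 417 CPM at 1 week and 135 CPM at 2 weeks (-1.63, interval -1.75 to -1.52), and Zbp1, a sensor of nucleic acids, at 513 and 233 CPM (-1.14). For Irf7, a transcription factor in the feed-forward loop of the response, the levels were 168 and 83.1 CPM (-1.01), and Rtp4 and Isg20 were the other members past 2-fold. Rsad2, an antiviral enzyme, went the other way at 176 and 230.5 CPM (0.39). By sub-gate, 6 of 27 members were at least 2-fold lower in monocyte-gated cells, 9 of 23 in macrophage-gated cells and 2 of 27 in cells with both sets.

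Interferon-gamma response genes mostly had ratios below 0, with 4 of 23 above it. Of those measured, 3 (Cxcl10, Socs1 and Serpina3g) were at least 2-fold lower and 1 (Nos2) at least 2-fold higher, with a median of -0.37 against 0.07 over all measured genes. Serpina3g, a serine protease inhibitor, stood at 229 and 74.8 CPM (-1.62).

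The promoters of 5 genes, Isg15, Cxcl10, Ccl12 and Ccl8 from above and the type I interferon gene Ifit1 (48.1 and 28.7 CPM, -0.74), are shown because interferon genes and chemokines both had medians below that of all genes at 2 weeks, while only some carry the interferon-stimulated response element. The motif was searched as GAAANNGAA on both strands in the 250 bases before each start site in RefSeq promoters of GRCm38.p6, where it occurs in 7.13% of 32851 promoters (8.18% of genes). It occurs in 13 of 23 type I interferon genes with a promoter in the table, 13 of 17 interferon-gamma genes and 4 of 16 chemokines (Ccl3, Cxcl9, Cxcl10 and Cxcl14). The promoters of Irf7, Ifit2 and Serpina3g held no match, and no promoter of Ccl2, Ccl7 or Ccl24 was available. Capitals mark the matches, which may overlap, in 120 bases read in the direction of the gene.
Isg15: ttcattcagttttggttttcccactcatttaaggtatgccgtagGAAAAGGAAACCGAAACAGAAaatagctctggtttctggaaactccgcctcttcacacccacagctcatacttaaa
Ifit1: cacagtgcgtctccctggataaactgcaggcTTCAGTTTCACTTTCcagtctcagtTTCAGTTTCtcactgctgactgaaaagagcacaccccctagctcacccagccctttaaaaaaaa
Cxcl10: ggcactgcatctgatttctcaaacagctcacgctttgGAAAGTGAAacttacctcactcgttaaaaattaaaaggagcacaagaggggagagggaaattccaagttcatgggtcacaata
Ccl12: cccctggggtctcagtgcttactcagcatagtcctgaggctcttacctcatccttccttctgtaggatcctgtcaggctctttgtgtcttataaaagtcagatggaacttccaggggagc
Ccl8: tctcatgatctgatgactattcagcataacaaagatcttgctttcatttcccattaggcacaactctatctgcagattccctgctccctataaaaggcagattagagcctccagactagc
The Isg15 window is chr4:156200821-156200940 on the minus strand, with matches that begin 78, 72 and 66 bases before the start site. Ifit1 (chr19:34640749-34640868, plus strand) holds matches at 109, 103 and 84 bases, and Cxcl10 (chr5:92349020-92349139, minus strand) holds 1 at 213 bases. The windows of Ccl12 (chr11:82101725-82101844, plus strand) and Ccl8 (chr11:82115065-82115184, plus strand) end at the start site, and these letters are not in their 250 bases. Ifit1 stood at 48.1 and 28.7 CPM in the gate (-0.74), beside -1.63 for Isg15, -1.37 for Cxcl10, -3.37 for Ccl12 and -2.79 for Ccl8.

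MHC class II genes, which present extracellular peptides to CD4 T cells, stood higher at 2 weeks in monocytes and macrophages, mostly by less than 2-fold. Of 11 measured, 1 (H2-Ob) was at least 2-fold higher and 0 lower, with a median log2 ratio of 0.61 against 0.07 over all genes. In Control their median was 0.23. The invariant chain Cd74 stood at 4368 CPM at 1 week and 7507 CPM at 2 weeks (0.78, interval 0.76 to 0.80), H2-Aa at 2613 and 4473 CPM (0.78, interval 0.75 to 0.80) and H2-Eb1 at 1799.7 and 2746 CPM (0.61). The median was 0.27 in monocyte-gated cells, 0.57 in cells with both sets and 0.81 in macrophage-gated cells. MHC class I presentation genes had a median of -0.07, with 1 of 22 at least 2-fold higher and 1 lower.

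**Figure D2:**
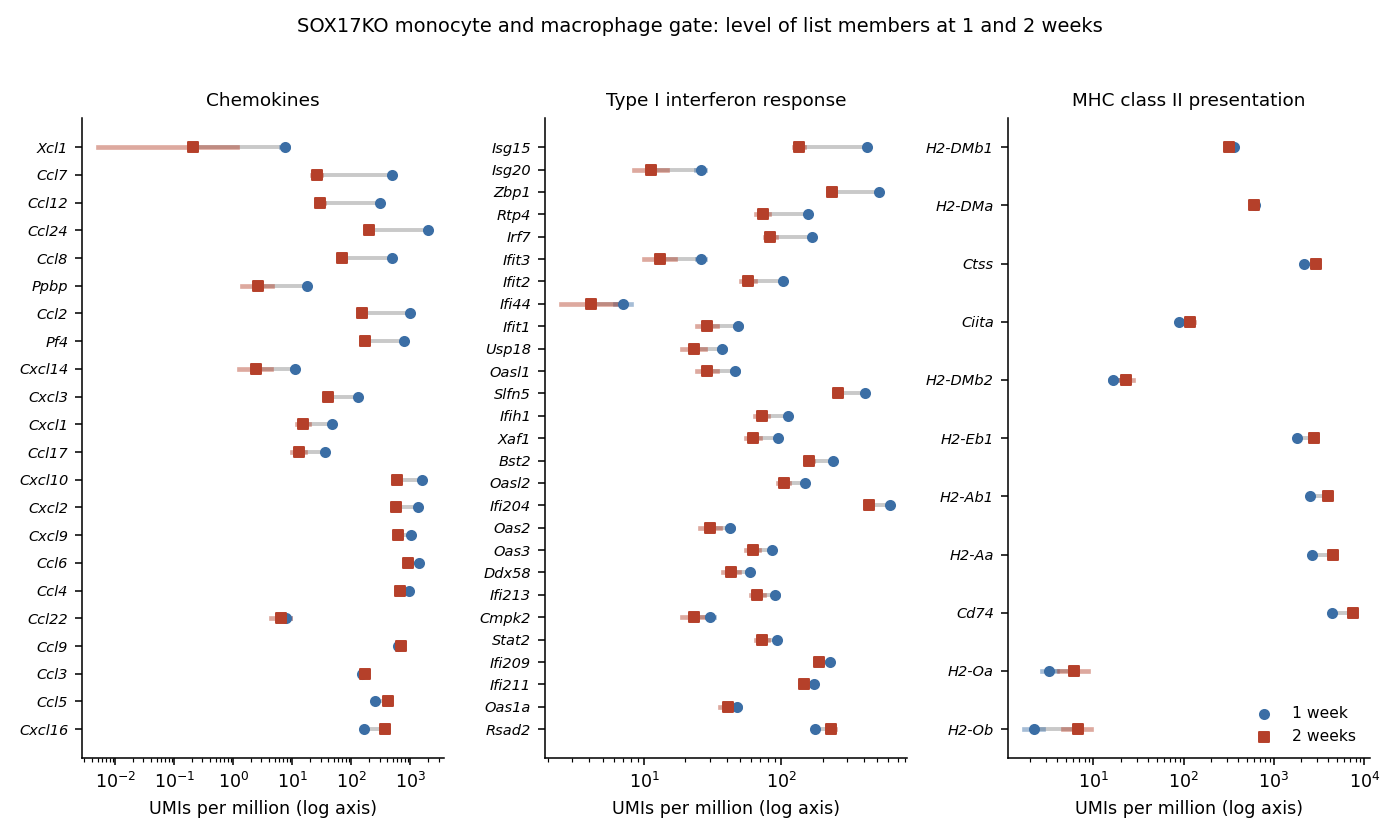
Level of each measured chemokine, type I interferon and MHC class II gene in the SOX17KO monocyte and macrophage gate (CPM on a log axis) at 1 week (circles) and 2 weeks (squares), with 95% counting intervals as bands and genes ordered by their ratio. Of the chemokines 14 of 22 lie at least 2-fold lower at 2 weeks, while the most abundant MHC class II genes lie to the right of their 1-week values.

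Immediate early genes, which cells induce on stimulation and also during tissue dissociation, stood higher at 2 weeks in this gate. At least 2-fold higher were 5 of 20, and 0 were lower, with a median of 0.55: Fos stood at 1008 and 2229 CPM (1.14), the phosphatase Dusp1 at 571 and 1362 CPM (1.25) and the heat shock gene Hspa1b at 226 and 528 CPM (1.22). The count was 5 and 5 of 20 in monocyte-gated cells and in cells with both sets, against 1 in macrophage-gated cells. Hypoxia and glycolysis genes had 2 of 25 at least 2-fold higher and 0 lower, with a median of 0.30. These were Egln3, a prolyl hydroxylase that marks HIF for breakdown, at 45.7 and 120.2 CPM (1.40, interval 1.26 to 1.54, and 1.90 in Control), and Vegfa, the endothelial growth factor, at 124 and 311 CPM (1.33). In monocyte-gated cells, cells with both sets and macrophage-gated cells the list median was 0.53, 0.39 and -0.02. Egln3 had 1.74, 1.57 and 0.57 in the same order. The hypoxia response element, searched as ACGTG on both strands, occurs in 16.6% of promoters and 18.5% of genes. In this list it occurs in 15 of 24 genes with a promoter, among them Egln3 (capitals, 229 bases before the start, chr12:54204005-54204124, minus strand):
Egln3: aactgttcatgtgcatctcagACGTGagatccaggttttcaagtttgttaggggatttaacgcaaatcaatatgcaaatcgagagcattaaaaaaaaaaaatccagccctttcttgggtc

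Macrophage repair genes went both ways. Of 19 measured, 2 were at least 2-fold higher and 6 lower, with a median of -0.05 (-0.52 in Control). By sub-gate the median was 0.11 in monocyte-gated cells, -0.11 in cells with both sets and -0.82 in macrophage-gated cells. In macrophage-gated cells 9 of 19 were at least 2-fold lower and 1 higher, against 4.33% and 2.28% of all measured genes. The mannose receptor Mrc1 stood at 671 and 295 CPM (-1.18) and Spp1, osteopontin, at 376 and 74.4 CPM (-2.34), both lower at 2 weeks, as were Cd163, Folr2, Lyve1 and Gas6 among resident macrophage genes. Arg1, arginase 1, was at 1776 and 1267 CPM (-0.49), and Retnla, a secreted factor of alternatively activated macrophages, at 238 and 618 CPM (1.38). Complement genes had 0 of 10 past 2-fold in either direction. Inflammatory cytokine genes had 0 of 18 at least 2-fold higher and 2 lower: Il1a at 88.0 and 28.3 CPM (-1.63) and Csf1, the macrophage growth factor, at 21.8 and 3.67 CPM (-2.57), while Il1b was at 4245 and 5051 CPM (0.25).

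Lipid-associated macrophage genes had 2 of 20 at least 2-fold higher and 2 lower. The sterol exporters Abca1 (166 and 419 CPM; 1.34, interval 1.26 to 1.41) and Abcg1 (62.2 and 157 CPM; 1.34) were the higher pair, and Fabp5, a fatty acid carrier, was at 723 and 221 CPM (-1.71). Matrix and wound repair genes had 3 of 18 at least 2-fold higher, the metalloproteases Mmp12, Mmp13 (12.5 and 48.7 CPM) and Mmp14 (96.7 and 211 CPM), and 5 lower. Cell cycle genes had 10 of 24 at least 2-fold lower and 0 higher, with a median of -0.86 and Mki67 at 24.2 and 14.9 CPM; after thinning 3 of 10 measured members were.

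Among single genes higher at 2 weeks in the gate, the largest ratio chosen by rule was that of Mmp12, macrophage elastase (chr9:7344381-7369499), at 33.7 CPM at 1 week and 209 CPM at 2 weeks, a log2 ratio of 2.63, interval 2.50 to 2.75 (1.16 in Control). It was found in 106 of 4550 cells at 1 week and 54 of 912 at 2 weeks. It was at 118 and 475 CPM in macrophage-gated cells and at 26.3 and 239 CPM in cells with both sets, and in monocyte-gated cells the 2-week library had 2 UMIs. Retnla likewise came from few cells (173 and 52) and stood at 1141 and 2086 CPM in macrophage-gated cells against 181 and 194 CPM in cells with both sets. Few cells of the gate held either gene.

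Nos2 (ENSMUSG00000020826), inducible nitric oxide synthase at chr11:78920787-78960254, stood at 104 CPM at 1 week and 278 CPM at 2 weeks in the gate, a log2 ratio of 1.41, interval 1.32 to 1.50, and was found in 700 and 166 cells. In Control it stood at 115 and 98.2 CPM, a log2 ratio of -0.23. Its log2 ratio was positive in monocyte-gated cells, cells with both sets and macrophage-gated cells alike (1.28, 1.69 and 2.26), as was that of Cxcr4, the CXCL12 receptor (1.95, 2.00 and 1.95; 96.1 and 403 CPM over the gate). Abca1 had its largest ratio in monocyte-gated cells (2.09, 1.22 and 0.70). In Control the log2 ratios over the gate were 1.89 for Cxcr4 and 0.84 for Abca1. Lyz1, a lysozyme, was at 21.3 and 116 CPM (2.44; 0.14 in Control), the serum-induced kinase Sgk1 at 44.5 and 187 CPM (2.07) and the phospholipid transfer protein Pltp at 64.6 and 177 CPM (1.46; 0.40 in Control). Scd2, Zfas1 and Ly6i completed the 12, with log2 ratios of 1.52, 1.41 and 1.39, and Dip2c, Atp5g1 and Snx6 the lower 12, with -1.40, -1.33 and -1.30. In Control these were, in the same order, 1.28, 0.59, 1.37, -1.94, -0.78 and -1.25.

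**Figure D3:**
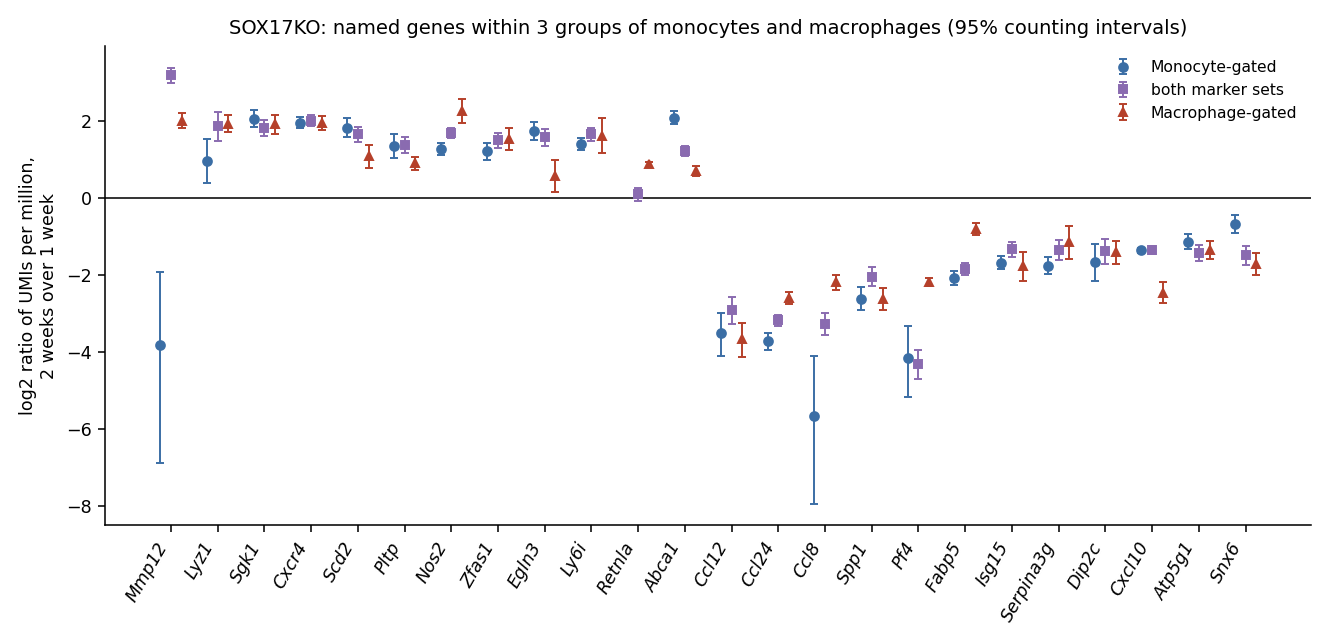
Log2 ratio of 2 weeks over 1 week for the 24 monocyte and macrophage genes chosen by rule, in SOX17KO monocyte-gated cells, cells with both marker sets and macrophage-gated cells, with 95% counting intervals as bars; points with under 50 UMIs or a 0 are left out. Nos2 and Cxcr4 lie above 0 and the chemokines below 0 in all 3 sub-gates, while Mmp12 is at 3.18 in cells with both sets and -3.81 in monocyte-gated cells.

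In neutrophils, the first cells of acute inflammation, a mixed list of maturity, ageing and activation genes had a median above 0. Genes of macrophages stood lower at 2 weeks along with the macrophage markers found in that gate. Of 6074 genes measured, 252 (4.15%) were at least 2-fold higher and 1678 (27.6%) at least 2-fold lower, with a median log2 ratio of -0.35; under TMM these were 570 higher and 1234 lower. The 1-week gate held 206 of 866 cells (23.8%) that also passed the monocyte and macrophage gate, against 6 of 217 (2.76%) at 2 weeks; in Control these were 32.6% and 4.44%. Those 1-week cells had a median of 7782.5 UMIs, against 1949 in the rest. The 10 monocyte and macrophage gate markers summed to 1906 and 559 CPM in neutrophils at 1 and 2 weeks, with none at 0, and their part in the lower genes was not tested. With all cells that passed a second gate left out, 105 genes were at least 2-fold higher and 357 lower, from fewer genes measured.

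At least 2-fold higher were 5 of 18 measured members of the maturity and ageing list, and 0 were lower, with a median of 0.66. In Control their median was 0.81. The list mixes granule genes of less mature cells with receptors and activation genes, so no stage of maturity is read from it. Cxcr4, which rises on ageing neutrophils, stood at 252 CPM at 1 week and 849 CPM at 2 weeks (1.75, interval 1.57 to 1.93). The decoy receptor Il1r2 was at 1304 and 3574 CPM (1.45) and the secreted Retnlg at 694 and 1723 CPM (1.31). Both of these are also gate markers, as are other members such as Csf3r and Cxcr2. Ccl4 was at 1937 and 4468 CPM and Ptgs2, which makes prostaglandins, at 2528 and 5108 CPM. With second-gate cells left out 1 of 18 stayed past 2-fold, and under TMM 9 of 18 did, so the size of this difference rests on which cells and scale are used. Outside this list, Il1b stood at 12317 and 20377 CPM, its antagonist Il1rn at 821 and 2000.1 CPM (1.29) and Acod1, which makes itaconate, at 4279.8 and 10102 CPM (1.24).

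Higher by rule were Cyp4f18, which inactivates leukotriene B4 (110.1 and 422 CPM; 1.94, interval 1.68 to 2.20), the myosin Myo1d (75.0 and 352 CPM; 2.23, interval 1.94 to 2.52), Eml1, Lypd6b, Pip5k1b and Selenon. Without second-gate cells the log2 ratio was 1.84 for Cyp4f18, 1.68 for Myo1d and 1.94 for Eml1, so these stood above 0 in both sets of cells. Lower by rule were Ccl8 (493 and 20.7 CPM), of which 1 cell held 70.0% of the 2-week UMIs, the acute phase gene Saa3 (161 and 31.1 CPM; 101 and 139 CPM in Control), Pde4d, Fam162a, Cox8a and the cytokine Mif (809.8 and 344 CPM). Without second-gate cells Ccl8 went from -4.57 to -1.30 and Mif from -1.24 to -1.91. At least 2-fold lower were 11 of 18 measured chemokines, 9 of 13 macrophage repair genes and 5 of 9 complement genes, among them C1qa (213 and 2.07 CPM). Without second-gate cells these counts were 2 of 10, 1 of 6 and 0 of 3, from fewer measured members, and no excess over all measured genes is read from them.

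Over dendritic cells of all types together, the chemokines Ccl17 and Ccl22 stood lower at 2 weeks and the MHC class II gene H2-Oa higher. Of 8075 genes measured, 325 (4.02%) were at least 2-fold higher and 218 (2.7%) at least 2-fold lower at 2 weeks, with a median of 0.14; under TMM these were 190 higher and 346 lower. Ccl17 stood at 799.7 CPM at 1 week and 139 CPM at 2 weeks (-2.52, interval -2.71 to -2.34) and Ccl22 at 453 and 174 CPM (-1.38, interval -1.56 to -1.21); both bind CCR4, and Ccl22 is itself a marker of the mature gate. Without cells that passed a second gate their log2 ratios were -5.28 and -3.37, and in Control, with such cells kept, -1.99 and -0.53. The CXCR3 ligands Cxcl9 (681 and 283 CPM) and Cxcl10 (303 and 108 CPM) were also lower, among 8 of 17 measured chemokines at least 2-fold lower. Of the 2 that were higher, Cxcl3 and Cxcl1, 1 cell held 100.0% and 83.1% of the 2-week UMIs.

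H2-Oa, a chain of the inhibitor of peptide loading H2-O, stood at 50.7 CPM at 1 week and 138 CPM at 2 weeks (1.44, interval 1.17 to 1.72), and H2-Eb2 at 10.8 and 37.3 CPM, the 2 of 12 MHC class II genes at least 2-fold higher, with a list median of 0.25 against 0.14 over all genes. Timd4, a receptor for phosphatidylserine on dying cells, was at 50.2 and 131 CPM from 31 and 23 cells. Lyst, Specc1, Sgms1 and the transcription factor Klf4 were the other higher genes, with log2 ratios of 1.27 to 1.47. On the lower side stood Fabp5 (1606 and 514 CPM), the isoprenoid enzyme Fdps (124 and 36.7 CPM), AY036118 and the nucleotide kinase Nme2. Complement genes had 4 of 7 at least 2-fold lower, and the monocyte and macrophage gate markers summed to 584 and 489 CPM in type 1, 683 and 775 CPM in type 2 and 218 and 44.7 CPM in mature dendritic cells at 1 and 2 weeks; their part in these genes was not tested. Immediate early genes had 5 of 20 at least 2-fold higher, 1 of 20 under TMM.

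Among T cells, CD8 and CD4 cells took larger shares at 2 weeks and Foxp3 and gamma-delta cells smaller ones. CD8 cells, which kill, were 22 of 145 (15.2%, 9.76 to 22.1) at 1 week and 291 of 759 (38.3%, 34.9 to 41.9) at 2 weeks, and CD4 helper cells 16 of 145 (11.0%, 6.44 to 17.3) at 1 week and 216 of 759 (28.5%, 25.3 to 31.8) at 2 weeks. Regulatory Foxp3 cells were 28 of 145 (19.3%, 13.2 to 26.7) at 1 week and 53 of 759 (6.98%, 5.27 to 9.03) at 2 weeks, and gamma-delta cells, with Trdc or Tcrg-C1 and without Cd4, Cd8a, Cd8b1 or Foxp3, were 38 of 145 (26.2%, 19.3 to 34.2) at 1 week and 40 of 759 (5.27%, 3.79 to 7.11) at 2 weeks. None of these 4 pairs of intervals overlapped. After thinning the shares were 10.4% and 33.3% for CD8, 9.70% and 21.8% for CD4, 13.4% and 4.82% for Foxp3 and 23.9% and 3.99% for gamma-delta cells, and in Control they were 7.78% and 49.5%, 16.7% and 18.7%, 22.2% and 5.16% and 14.4% and 4.03% before thinning. At most 0.380% of thinned neutrophils, monocytes and macrophages or B cells held a UMI of Cd8a, Cd4, Foxp3 or Trdc, far below the T cells. The gate held 145 cells at 1 week, so single cells weigh heavily there.

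Over the T cell gate, Lag3 and Prf1 stood higher at 2 weeks, and Il17a and Il23r were among the 6 genes with the lowest ratios at or above 100 CPM in the higher library, taken by the rule for named genes. Of 8690 genes measured, 723 (8.32%) were at least 2-fold higher and 379 (4.36%) at least 2-fold lower, with a median of 0.15; under TMM these were 525 higher and 544 lower. Lag3, an inhibitory receptor that binds MHC class II, stood at 7.41 CPM at 1 week and 126 CPM at 2 weeks (4.08, interval 3.03 to 5.40). In Control its log2 ratio was 5.24. Perforin, Prf1, stood at 16.9 and 104 CPM (2.62, interval 1.91 to 3.44), but at 0.62 in classes from clusters and 1.84 after thinning. The cluster with most 1-week cells of that T class (261 cells) had 26.8% of its barcodes in the T cell gate and 53.9% passing gates of several lineages. Rgs16, a regulator of G protein signalling, was at 10.6 and 219 CPM (4.37, interval 3.48 to 5.43) and Dlg2, a scaffold protein, at 2.12 and 106 CPM, from 2 UMIs at 1 week (5.64, interval 3.78 to 8.69). The CD8 chains Cd8a (54.0 and 280.3 CPM) and Cd8b1 (37.1 and 201 CPM) were higher beside the larger CD8 share.

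Il17a stood at 253 CPM at 1 week and 22.7 CPM at 2 weeks (-3.48, interval -3.81 to -3.15), with 37.2% of its 1-week UMIs in 1 cell. The interleukin-23 receptor Il23r, which sustains such cells, was at 176 and 12.5 CPM (-3.82, interval -4.26 to -3.39), found in 31 of 145 and 13 of 759 cells. In Control the log2 ratios were -3.09 for Il17a and -2.79 for Il23r. The interleukin-1 receptor Il1r1 (157 and 12.3 CPM), Zbtb16, the transcription factor of innate-like T cells (147 and 15.2 CPM), and the membrane proteins Tmem176a (199 and 16.0 CPM) and Tmem176b (215 and 10.9 CPM) were lower with them. The lower share of gamma-delta cells moved with all 6, and in classes from clusters their log2 ratios ran from -2.78 to -1.94. Within the 38 and 40 gamma-delta cells, Il17a was at 740.5 and 339 CPM (-1.13), Il23r at 479 and 217 CPM (-1.14) and Il1r1 at 465 and 221 CPM, so the ratios there were nearer to 0 than over the whole gate.

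Of 13 measured cytotoxic effector genes, 7 were at least 2-fold higher and 2 lower, with a median of 1.28, but their summed level was lower at 2 weeks, 6479 and 4132 CPM. Gzmk stood at 4.24 and 71.2 CPM and Fasl, the death ligand, at 27.5 and 115 CPM, while Gzmb was lower, at 1592 and 715 CPM (-1.16, interval -1.24 to -1.07). Ifng, interferon gamma, was at 1742 and 289.8 CPM, and 1 cell held 56.4% of its 1-week UMIs; without the top cells its log2 ratio went from -2.59 to -1.59. Of 12 members of the inhibitory receptor list, 6 were at least 2-fold higher and 0 lower, with a median of 0.94. Not all members are inhibitory receptors: the list also holds transcription factors such as Tox, a costimulatory receptor and the enzyme Entpd1. Besides Lag3, the higher ones were Havcr2 (40.2 and 190.1 CPM), Pdcd1 (61.4 and 172 CPM), which encodes PD-1, Entpd1 (62.5 and 163 CPM), Tigit (21.2 and 43.1 CPM) and Cd160. Ctla4 (574 and 648 CPM) and Tox (478 and 534 CPM), a transcription factor of exhausted cells, were near level. In Control the medians were 1.20 for cytotoxic effector genes and 0.81 for the inhibitory receptor list.

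Both lists had more members higher than lower within CD8-gated cells, 22 cells at 1 week and 291 at 2 weeks. There 6 of 12 cytotoxic genes and 7 of 12 members of the inhibitory receptor list were at least 2-fold higher, against 14.1% of 6483 measured genes. Prf1 stood at 28.4 and 176 CPM (5 and 407 UMIs), Havcr2 at 39.7 and 201 CPM and Ctla4 at 90.8 and 445 CPM (16 and 1027 UMIs). Gzmb was at 2372 and 1191 CPM (-0.99) and Ifng at 704 and 173 CPM (-2.03), with 58.9% and 85.5% of their 1-week UMIs in 1 cell; without the top cells the ratios were -0.14 and 0.45. Cxcr6, the receptor of the CXCL16 that stood higher in monocytes and macrophages, was at 45.4 and 326 CPM (8 and 752 UMIs) in CD8 cells and at 172 and 356 CPM over the T gate. In the 28 and 53 Foxp3 cells Gzmb was at 4336 and 1382 CPM (-1.65) and Ctla4 at 2464 and 2248 CPM.

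Interferon response genes stood lower in T cells at 2 weeks too. At least 2-fold lower were 11 of 20 type I interferon genes (median -1.01) and 10 of 19 interferon-gamma genes (median -1.07), and 0 of either list were higher. In Control the medians were -1.89 and -1.27. Isg15 stood at 111 and 17.4 CPM (-2.68) and, in Foxp3 cells, at 316 and 16.3 CPM. The interferon-induced GTPases Iigp1 (310.3 and 49.9 CPM), Gbp2 (356 and 77.2 CPM) and Igtp (221 and 77.0 CPM) went the same way. In classes from clusters, with the mixed cluster given above, 23 of 26 type I genes were lower, and after thinning 4 of 8. Genes of macrophages were lower in the gate as well: 8 of 11 repair genes, with Arg1 at 90.0 and 23.7 CPM and Thbs1 at 74.1 and 8.11 CPM. The 10 monocyte and macrophage gate markers summed to 696 and 651 CPM and their 5 check markers to 536 and 239 CPM, with 2 gate markers at 0 at 1 week, and the part of RNA from macrophages in these values was not tested. Of 11 chemokines 7 were lower, but Ccl3 and Ccl4 owed 90.0% and 88.0% of their 1-week UMIs to 1 cell and stood above 0 without it (0.96 and 1.67).

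**Figure D4:**
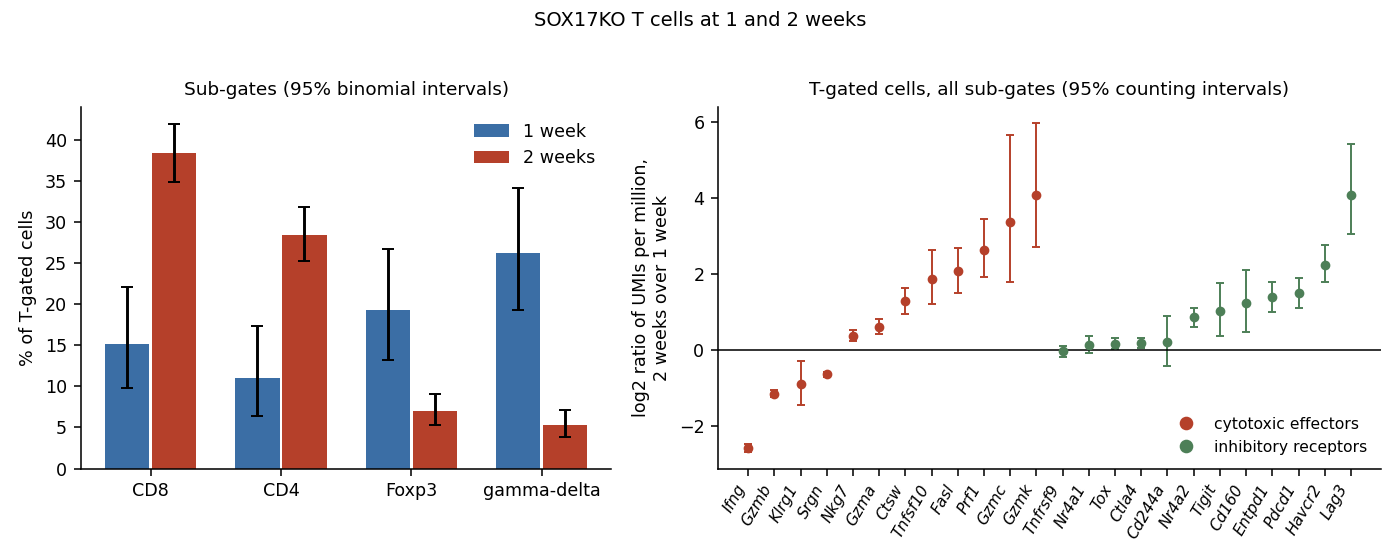
Left, share of SOX17KO T cells (%) that fall in the CD8, CD4, Foxp3 and gamma-delta sub-gates at 1 and 2 weeks, with 95% binomial intervals. Right, log2 ratio of 2 weeks over 1 week for members of the cytotoxic and inhibitory receptor lists in the T cell gate, with 95% counting intervals and without genes at 0 in a library. CD8 cells go from 15.2% to 38.3% and gamma-delta cells from 26.2% to 5.27%, and Lag3 has a log2 ratio of 4.08 against -1.16 for Gzmb.

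NK cells stood lower in cell cycle genes at 2 weeks. Of 5607 genes measured, 347 (6.19%) were at least 2-fold higher and 244 (4.35%) at least 2-fold lower, with a median of 0.20; under TMM these were 185 higher and 434 lower. At least 2-fold lower were 11 of 18 measured cell cycle genes, with 0 higher and a median of -1.20 (-0.66 in Control). After thinning 2 of 4 and in classes from clusters 4 of 10 measured members were at least 2-fold lower. Pola1, a DNA polymerase subunit, stood at 175 and 47.0 CPM (-1.89, interval -2.39 to -1.42; 0.10 in Control) and Stmn1, which acts on microtubules in dividing cells, at 230.5 and 46.0 CPM (-2.33, interval -2.81 to -1.86). For the proliferation marker Mki67, 1 cell held 86.0% of its 2-week UMIs, without which its log2 ratio went from -1.76 to -4.28. Hells, Ranbp1 and Sema6a were the other lower genes, with log2 ratios of -1.69 to -1.64.

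The highest ratios in NK cells came from a single cell. Gzmf, Gzmd, Gzme and Gzmg, granzymes in 1 cluster on chromosome 14 (Gzmf at chr14:56205263-56211417), were at 0 CPM at 1 week and at 1338, 895, 608 and 493 CPM at 2 weeks. A cell of 94366 UMIs held 99.8%, 99.0%, 98.8% and 100.0% of these UMIs. It had 18 UMIs of Ncr1 and 0 of Cd3d, Cd3e and Cd3g, and it was not among the barcodes removed by doublet score. It also held 70.4% of Gzmc (88.7 and 842 CPM), whose log2 ratio was 2.14 without the top cells against 3.25 with them. Angpt1, angiopoietin 1, was spread over more cells, 16 of 174 and 51 of 174, at 19.3 and 164 CPM (3.09, interval 2.41 to 3.84; 1.53 in Control).

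Among NK effector genes, Gzma, Gzmb and Ifng stood lower at 2 weeks. Gzma stood at 5739 and 3296 CPM (-0.80, interval -0.86 to -0.74), Gzmb at 1404 and 1125 CPM (-0.32, interval -0.43 to -0.21) and Ifng at 508 and 202 CPM (-1.33), while Prf1 was at 773 and 771 CPM (interval -0.15 to 0.14). At 2 weeks the single cell above held 48.8% of the Gzmb, 18.2% of the Prf1 and 15.2% of the Gzma UMIs, and 94366 of the 1000200 UMIs of the gate. The ratios of Gzmb, Prf1 and Gzma were not recomputed without that cell. Their sizes and narrow intervals, Gzmb above all, thus do not describe the other NK cells. For Ifng 1 cell held 34.7% at 1 week and 32.7% at 2 weeks. The chemokines Ccl5 (4539 and 2307 CPM) and Xcl1 (817 and 372 CPM), which draws type 1 dendritic cells, were lower. Cytotoxic effectors had 4 of 13 at least 2-fold higher, against 6.19% of all measured genes; these were Gzmc, Gzmd, Gzme and Gzmf, most of whose 2-week UMIs lay in the single cell above. Without cells that passed a second gate 1 of 9 were. The residency integrin Itga1 was at 6.75 and 92.0 CPM, Tcf7, a transcription factor of less mature lymphocytes, at 94.5 and 233 CPM and Ctla4 at 42.4 and 118 CPM. T cell gate markers were present in this gate, with 42 of 174 and 36 of 174 cells passing the T cell gate as well.

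Across the gates, the median of the chemokines stood below that of all measured genes in each of the 5 classes, and so did the medians of the type I interferon, interferon-gamma and macrophage repair lists. Some gaps were small: -0.42 against -0.35 for interferon-gamma genes in neutrophils, and -0.05 against 0.07 for repair genes in monocytes and macrophages. In NK cells only 5 type I interferon and 7 repair genes were measured, and 4 of those repair genes had ratios above 0. In neutrophils, fewer chemokines and repair genes were lower without second-gate cells, as given above. The inhibitory receptor list had a median above that of all measured genes in each of the 5 classes, so this was not a trait of T cells alone. It was 0.94 against 0.15 in T cells, 0.93 against 0.14 in dendritic cells and 0.71 against -0.35 in neutrophils (5 members measured). In monocytes and macrophages it was 0.45 against 0.07, and in NK cells 0.48 against 0.20. Over all cells 15 of 22 chemokines and 20 of 28 type I interferon genes were at least 2-fold lower, against 4.15% of all measured genes. At least 2-fold higher were 12 of 15 members of the cytotoxic list, 8 of 12 of the inhibitory receptor list and 17 of 24 cell cycle genes, against 17.3%. The cell cycle count over all cells stands beside 0 higher in monocytes and macrophages and 0 in NK cells. It was 5 of 22 in dendritic cells, against 4.02% of all measured genes there, and 3 of 24 in T cells, against 8.32%. The count over whole libraries thus did not match that of any one class. Hypoxia and glycolysis genes had at most 2 members at least 2-fold higher in any one class.

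**Figure D5:**
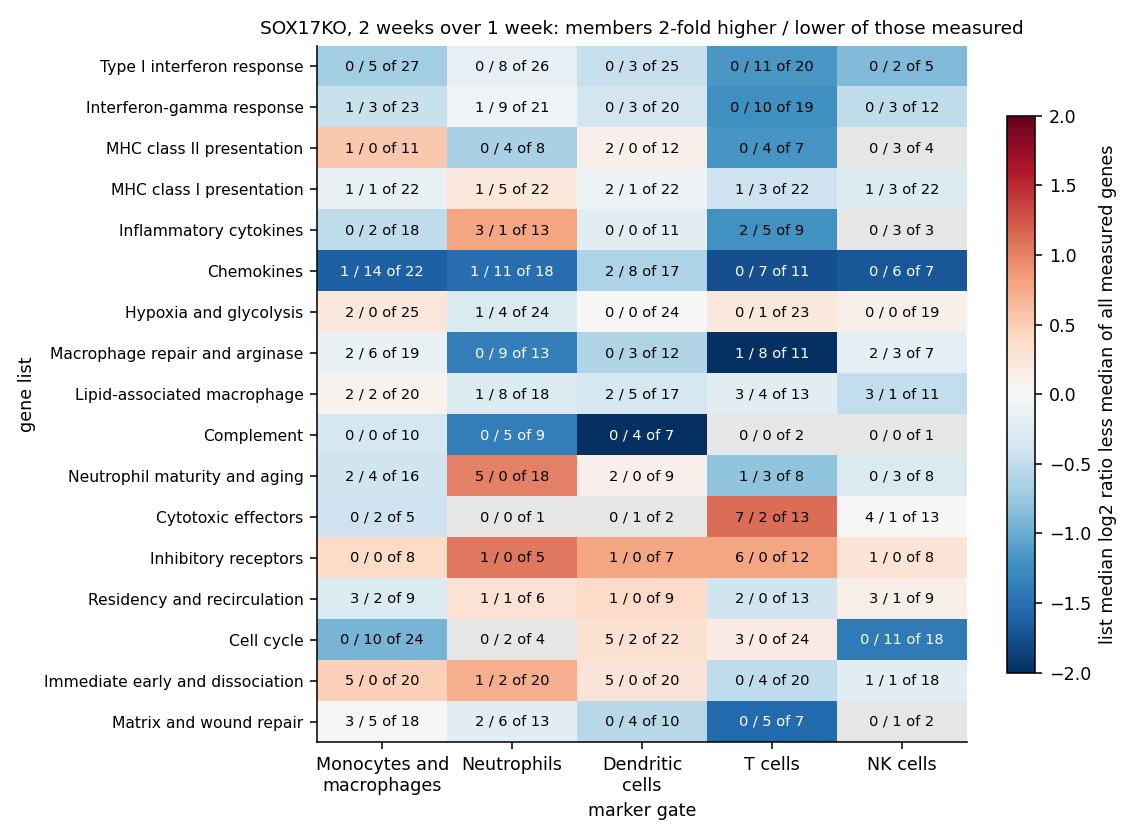
Heat map of 17 gene lists (vertical) in 5 SOX17KO gates (horizontal); the text gives members at least 2-fold higher and lower at 2 weeks of those measured, and the colour gives the list's median log2 ratio less the median of all measured genes, with values beyond 2 in either direction drawn in the end colour and grey where fewer than 5 members were measured. Chemokines, both interferon lists and macrophage repair genes are below the background in all 5 gates, some by a small margin. Of the chemokines, 14 of 22 are lower in monocytes and macrophages. The inhibitory receptor list is above the background in all 5 gates, and cytotoxic effectors are above it in T cells.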

How the data were processed

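The authors deposited raw UMI counts per gene and barcode, made with Cell Ranger 6.0.1 against mm10 per the submitters' processing notes, while the matrix header names 7.0.1; each condition here is 1 library from pooled tumours, with no replicate library. Per the file headers there are 32285 genes. No label or header says how barcodes were filtered before deposit.

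Barcodes with at least 200 genes and at most 10% mitochondrial UMIs were kept. Classes came from 12 marker gates; a barcode that passed several gates of 1 lineage went to the best one, and barcodes that passed gates of different lineages were set apart. Some genes of the gates and lists are counted but not reported here by name. Doublets were otherwise kept, and removing 427 and 73 barcodes by a doublet score was an alternative. Counts were summed per class and library and divided by the summed total (CPM). Log2 ratios of 2 weeks over 1 week carry exact binomial 95% intervals of the counts, with 3 counts in place of a 0 in 1 library; shares carry Clopper-Pearson intervals, and log2 odds ratios add a small constant. Genes with at least 50 UMIs over both libraries were measured and 2-fold was the mark of a difference. There is no test, since cells are not replicates. The fold and interval steps were tested on simulated counts.

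Genes named singly are the 12 (all cells, monocytes and macrophages) or 6 (other classes) with the largest and smallest ratio among those with at least 100 CPM in the higher library, an interval that leaves out 0 and, within a gate, a level no lower than over all cells; receptor segments, mitochondrial, ribosomal, haemoglobin, sex-linked and unnamed genes were left out. Members of 17 gene lists are named where their list is described, by counts or by size of ratio; a few, such as Rsad2, Itga1 and Acod1, were chosen after their values were seen. The classes, lists and comparisons were chosen with earlier results of these data known. Promoters are RefSeq's (GRCm38.p6), and gene positions are from the GENCODE annotation of GRCm38. Alternatives were TMM (edgeR 4.0.16) and median-of-ratios factors (DESeq2 1.42.0) in R 4.3.3, thinning, other gates, Leiden clusters (leidenalg 0.10.2), other filters and per-cell means. Python 3.11.15, numpy 2.4.6, pandas 2.3.3, scipy 1.17.1, scikit-learn 1.9.0 and matplotlib 3.10.9 were used.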

Additional observations from a re-analysis of the deposited data

Results flagged for a closer look

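Nos2 in monocytes and macrophages went opposite ways between weeks in the SOX17KO and Control libraries. In SOX17KO it stood at 104 CPM at 1 week and 278 CPM at 2 weeks, a log2 ratio of 1.41, interval 1.32 to 1.50, and in Control at 115 and 98.2 CPM, a log2 ratio of -0.23, interval -0.38 to -0.09. It was singled out because both counting intervals lie away from 0 on different sides. No other gene named singly by rule had such a pair of intervals. With 1 library for each time and genotype the difference was not tested. Over the alternatives in which it was recomputed, the SOX17KO log2 ratio of Nos2 ran from 1.33 to 1.43. The Control ratio was not recomputed under any alternative or by sub-gate. Whether its sign, and so the opposite direction, depends on the processing was not tested.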

How the results depend on the processing

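Class shares kept their direction in every alternative except mast cells, given above. The log2 odds ratio of T cells was 3.41 (3.76% to 29.4%) when barcodes of several gates went to their best gate and 2.92 in classes from clusters. That of monocytes and macrophages was -1.75 from clusters and -2.07 without cells passing a second gate, and that of neutrophils -1.03 after thinning and -0.40 without cells passing a second gate. Counts of genes past 2-fold depended more on the processing. After thinning they were 271 higher in monocytes and macrophages, 679 lower in neutrophils, 123 higher and 121 lower in dendritic cells, 221 lower in T cells and 227 higher and 155 lower in NK cells, with fewer UMIs and genes measured. TMM scaling gave 1514 higher and 1163 lower over all cells, 570 higher in neutrophils, 190 higher and 346 lower in dendritic cells and 185 higher and 434 lower in NK cells, and median-of-ratios factors gave 1517 higher and 1163 lower, 641 higher, 194 higher and 345 lower and 181 higher and 437 lower for the same. Classes from clusters gave 453 higher in neutrophils, 868 lower in T cells and 593 higher and 737 lower in NK cells; the cause was not tested. Genes measured from 20 UMIs upward gave 649 higher and 680 lower in monocytes and macrophages, 629 higher and 412 lower in dendritic cells, 678 lower in T cells and 667 higher and 488 lower in NK cells. Without a filter there were 3946 higher and 1162 lower over all cells, 1148 higher and 795 lower in monocytes and macrophages, 666 higher and 2594 lower in neutrophils, 1201 higher and 782 lower in dendritic cells, 1221 higher and 1307 lower in T cells and 1311 higher and 927 lower in NK cells. Without cells passing a second gate, an alternative chosen after seeing the data, there were 105 higher and 357 lower in neutrophils and 181 higher in dendritic cells. Filters and cell sets change how many genes are measured, so these counts alone do not show whether the share past 2-fold changed.

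Of the recomputed ratios of singly named genes, 645 stayed inside the gene's own counting interval and 232 moved out of it, and none changed direction. A wide interval lets a larger shift count as inside. The genes were chosen for extreme ratios in these same counts, so their kept direction is no separate support. Thinning moved 51, and leaving out the cell with the most UMIs of a gene, also chosen after seeing the data, moved 22 and left Gzmf and Gzmg in NK cells with no ratio. No paired analysis was possible because each time and genotype is 1 library without replicates. Depth limits the small classes: T cells held 944325 UMIs at 1 week and neutrophils 482986 at 2 weeks, so genes with few UMIs carry wide intervals there, and no interval here covers variation between mice.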

Other observations

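Genes of tissue residency in T cells, which hold cells in a tissue or let them leave, had 2 of 13 members at least 2-fold higher at 2 weeks and 0 lower, against 8.32% and 4.36% of all measured genes. Their median was -0.24 against 0.15, with 6 of 13 above 0. Itga1, an integrin that binds collagen, stood at 33.9 and 120.3 CPM (1.83, interval 1.31 to 2.39), and Cxcr6 was the other member. In neutrophils the inflammatory cytokine list had 3 of 13 members at least 2-fold higher and 1 lower, against 4.15% and 27.6% of all measured genes. Osm, which encodes the cytokine oncostatin M, was among the higher, at 317 and 725 CPM (1.19, interval 1.01 to 1.37). Without cells passing a second gate, the count at least 2-fold higher was 1 of 11, against 2.87% of all measured genes. Both sets were named after their values were seen.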
